A study of Mus musculus with 6 samples.

Results

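The expression of 37 interferon-stimulated genes was examined in macrophages with and without a knockout of Dhps, the gene of deoxyhypusine synthase. This enzyme catalyses the first step in the making of hypusine, an amino acid found in the translation factor eIF5A. The genes were taken from a list of symbols, with no threshold on their values in the rule, and all 37 were among the 10551 genes of the count table. The cells were bone marrow-derived macrophages of C57BL/6J mice, with 3 control libraries and 3 libraries of a genotype labelled as a macrophage-specific knockout (Dhps_delta_Myel). The labels name no Cre driver, no allele of the controls, no age or sex, and no stimulus. Whether separate mice or cultures stand behind the libraries is not stated in them either. The p-values therefore measure only the spread between these libraries, which may be technical.

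Interferons are cytokines that cells release on sensing microbes. Type I interferons act through the receptor Ifnar1-Ifnar2 and the kinases Jak1 and Tyk2, which activate STAT transcription factors, and Stat2 and Irf9 take part in a complex that binds the interferon-stimulated response element (ISRE) upstream of antiviral genes. Interferon-gamma acts through Ifngr1-Ifngr2 and STAT binding to the gamma-activated sequence (GAS), and it is the main inducer of Irf1 and of the guanylate-binding proteins. Macrophages make interferon-beta after Toll-like receptor signals and respond to it themselves. The 37 genes were ordered by role into 21 antiviral effectors, 5 nucleic acid sensors, 5 interferon-inducible GTPases and 6 genes of the STAT and IRF factors and their feedback inhibitors.

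Upstream sequences are shown for genes on which the results below turn, since both kinds of element are short and can be read by eye. They cover the 200 bases before the annotated start of transcription, 5′ to 3′ on the strand of the gene, from RefSeq (GRCm38.p6, the assembly of mm10). Capitals mark each match to the ISRE pattern (GAAA, any 2 bases, then GAAA again, or TTTC, any 2 bases and TTTC where it lies on the other strand) or to the GAS pattern TTCNNNGAA, which reads the same on both strands.
Isg15, chr4:156200819-156201018, minus strand: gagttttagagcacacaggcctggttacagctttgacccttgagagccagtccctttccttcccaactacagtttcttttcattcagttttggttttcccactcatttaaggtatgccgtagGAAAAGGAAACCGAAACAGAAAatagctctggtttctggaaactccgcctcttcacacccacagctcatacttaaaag
Ifit1, chr19:34640689-34640888, plus strand: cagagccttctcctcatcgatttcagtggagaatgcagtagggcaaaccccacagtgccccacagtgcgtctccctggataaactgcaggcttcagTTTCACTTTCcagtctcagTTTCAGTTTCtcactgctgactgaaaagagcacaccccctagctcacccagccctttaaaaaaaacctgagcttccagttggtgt
Rsad2, chr12:26456453-26456652, minus strand: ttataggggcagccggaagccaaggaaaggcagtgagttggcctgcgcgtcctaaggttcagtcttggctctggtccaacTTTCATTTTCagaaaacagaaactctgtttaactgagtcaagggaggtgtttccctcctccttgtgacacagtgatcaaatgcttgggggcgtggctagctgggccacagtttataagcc
Oasl1, chr5:114923040-114923239, plus strand: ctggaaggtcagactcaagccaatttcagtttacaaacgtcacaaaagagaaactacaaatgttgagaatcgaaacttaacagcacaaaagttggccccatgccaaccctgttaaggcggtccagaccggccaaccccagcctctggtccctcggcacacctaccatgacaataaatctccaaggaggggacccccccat
Gbp2, chr3:142620463-142620662, plus strand: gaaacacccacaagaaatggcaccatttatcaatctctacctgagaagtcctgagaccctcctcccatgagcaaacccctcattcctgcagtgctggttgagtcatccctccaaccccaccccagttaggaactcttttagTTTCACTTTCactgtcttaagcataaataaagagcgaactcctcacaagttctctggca
Gbp5, chr3:142496734-142496933, plus strand: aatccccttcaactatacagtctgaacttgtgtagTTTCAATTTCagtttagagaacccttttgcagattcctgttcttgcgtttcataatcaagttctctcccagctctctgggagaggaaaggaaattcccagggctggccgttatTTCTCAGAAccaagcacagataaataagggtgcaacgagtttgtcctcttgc
Irf1, chr11:53769814-53770013, plus strand: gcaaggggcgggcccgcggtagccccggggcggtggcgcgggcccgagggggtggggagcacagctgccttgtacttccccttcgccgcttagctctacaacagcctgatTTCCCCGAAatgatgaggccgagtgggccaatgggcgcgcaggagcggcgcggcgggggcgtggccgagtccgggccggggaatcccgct

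In Isg15 the ISRE pattern matched 3 times in a row, each match sharing bases with the next, from position -78 to -57 relative to the start. Ifit1 held 2 ISRE matches, Rsad2, Gbp2 and Gbp5 held 1 each, and Oasl1 held neither pattern in this window. Gbp5 also held a GAS match, from -52 to -44. Irf1 held a GAS match and no ISRE match. RefSeq entries were found for 28 of the 37 genes, and for 24 of these an entry began at the same base as the deposited gene model. Within 250 bases before any listed start, the ISRE pattern was found in 15 of the 28 genes (53.6%), against 3.54% of the 8086 genes of the count table with an entry. The GAS pattern was found in 6 of the 28 (21.4%), against 7.31%. By role, the ISRE pattern was present in 8 of 15 effectors, 4 of 5 GTPases and 1 of 3 sensors. It was also present in 2 of 5 STAT, IRF and feedback genes. The GAS pattern was present in 3 of 15 effectors, 2 of 5 GTPases and 0 of 3 sensors, and in 1 of 5 STAT, IRF and feedback genes. In Bst2 the GAS match shares bases with an ISRE match. Such matches describe the letters of the sequence and do not show that a factor binds.

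**Figure D1:**
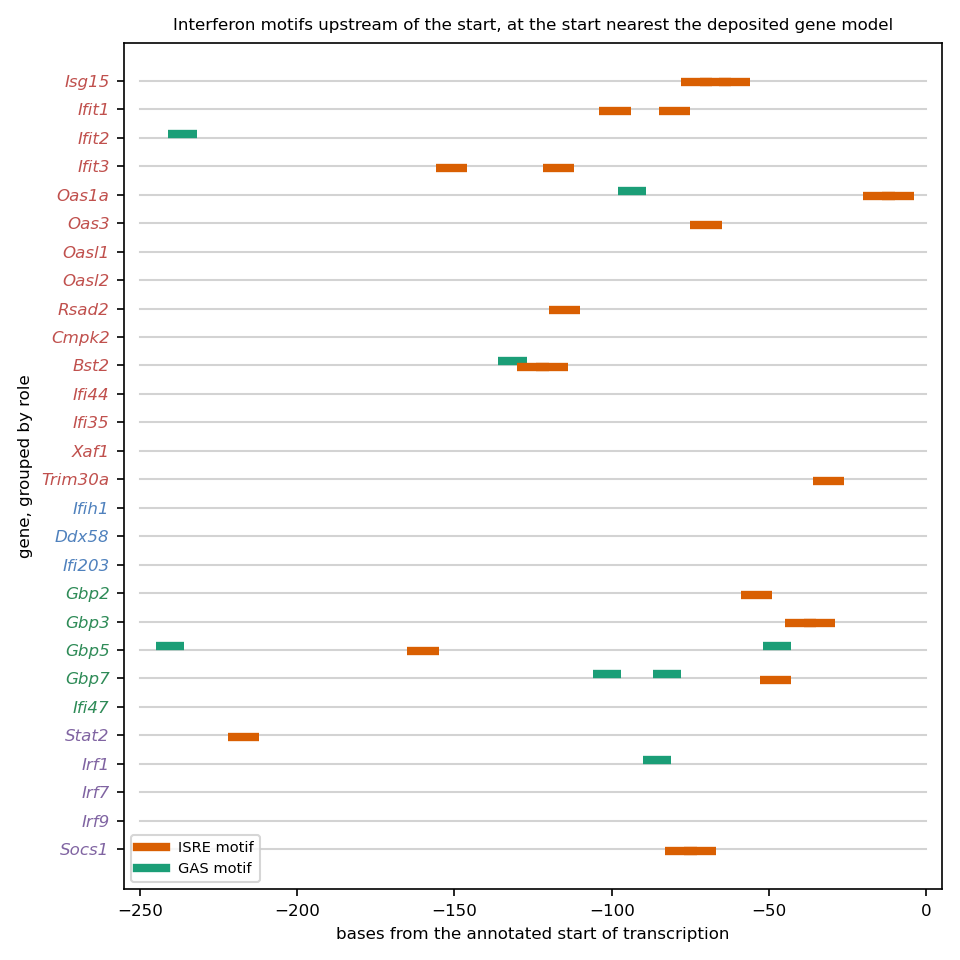
Matches to the ISRE pattern (orange) and the GAS pattern (green) in the 250 bases before the start of transcription for the 28 genes with an entry, at the start nearest the deposited gene model, with distance in bases on the x axis and name colours as role groups (red effectors, blue sensors, green GTPases, purple STAT, IRF and feedback). The ISRE matches drawn lie at -165 or nearer to the start, except that of Stat2, which begins at -222.

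The libraries held between 11648710 and 16224818 counts. Values are given as normalized CPM, counts per 1000000 counts of the library after scaling by the trimmed mean of M values, in the order of libraries 1, 2 and 3 of a group, and the fold changes as knockout relative to control on the log2 scale. Dhps itself lay at 24.1, 20.9 and 23.4 CPM across the controls and 13.2, 13.6 and 18.3 across the knockouts, with each knockout library below each control library (log2 fold change -0.59, SE 0.14, adjusted p = 0.214 by the quasi-likelihood test of edgeR). Of 10 macrophage markers all were measured, with a summed level of 22536 to 25238 CPM across the controls and 13503 to 15774 across the knockouts. By the edgeR test 1 of them, Lyz2, fell and 0 rose, where 0.00948% of all genes were called lower. The sum without Lyz2 was not computed, so how much of the lower sum is Lyz2 alone is not shown. Fcgr1 is both on the macrophage list and on the interferon-gamma list below. Of 10 markers of neutrophils and their precursors 9 were measured, with 331 to 445 CPM across the controls and 629 to 824 across the knockouts. By the same test 5 of the 9 rose in the knockout libraries (Ngp, S100a8, S100a9, Lcn2 and Ltf), where 0.0948% of all genes were called higher. Camp, Mpo, Elane and Prtn3 were not called. Monocyte markers (7 of 7 measured) summed to 78.7 to 86.0 and 88.1 to 128 CPM. Stromal markers (3 of 7) summed to 3.73 to 5.04 and 7.22 to 11.3 CPM. Of these stromal markers 2 (Col1a2 and Sparc) rose, against the same 0.0948% of all genes. Of plasmacytoid dendritic cell markers 4 of 8 were measured (109 to 139 and 124 to 135 CPM, Siglech not among them), and of T and NK cell markers 0 of 11. In bulk libraries, fewer cells of a type and less RNA per cell cannot be told apart.

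All 37 genes were expressed in both genotypes, and none of them differed between the genotypes by the edgeR test. The lowest value of any of them in any library was 31.3 CPM. Per kilobase of exon, Gbp2 was the highest of the 37 in control libraries with 2443 normalized CPM per kilobase, followed by Gbp5 (1279), Rsad2 (850), Ifi47 (849) and Irf1 (638). Rsad2 and Ifi47 did not differ beyond their spread between libraries. The lowest were Oas2 (11.3), Ifi44 (13.6) and Irf9 (18.3), all per kilobase.

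Of the 37 genes 0 rose and 0 fell by the quasi-likelihood test of edgeR with p-values adjusted over all 10551 genes, where 11 genes (0.104%) were called, 10 higher (0.0948%) and 1 lower (0.00948%). The smallest adjusted p among the 37 was 0.603. At an unadjusted p under 0.05 there was 1 of 37, Ifi27l2a, which was lower in the knockout, against 6.48% of all genes. DESeq2 and limma-voom called 0 of the 37 as well, with 0 and 1 at an unadjusted p under 0.05. In none of the 37 genes did the 3 control and the 3 knockout libraries separate without overlap, while 11.2% of all genes were separated in this way (5.73% higher and 5.45% lower in the knockout). The log2 fold change was below 0 in 27 and above 0 in 10 genes, with a median of -0.045 beside -0.0044 over all genes. That majority turned with single libraries: 34 of 37 were below 0 without knockout library 3, and 26 of 37 were above 0 without knockout library 1. For 33 of the 37 genes the 95% interval of the log2 fold change lay within 0.5 either way. The same held for 6711 of all 10551 genes and for 6196 of the 6861 genes with a mean of at least 10 CPM. Among the 37, the genes with wider limits were Oas2, Oasl1, Ifi44 and Ifi27l2a.

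**Figure D2:**
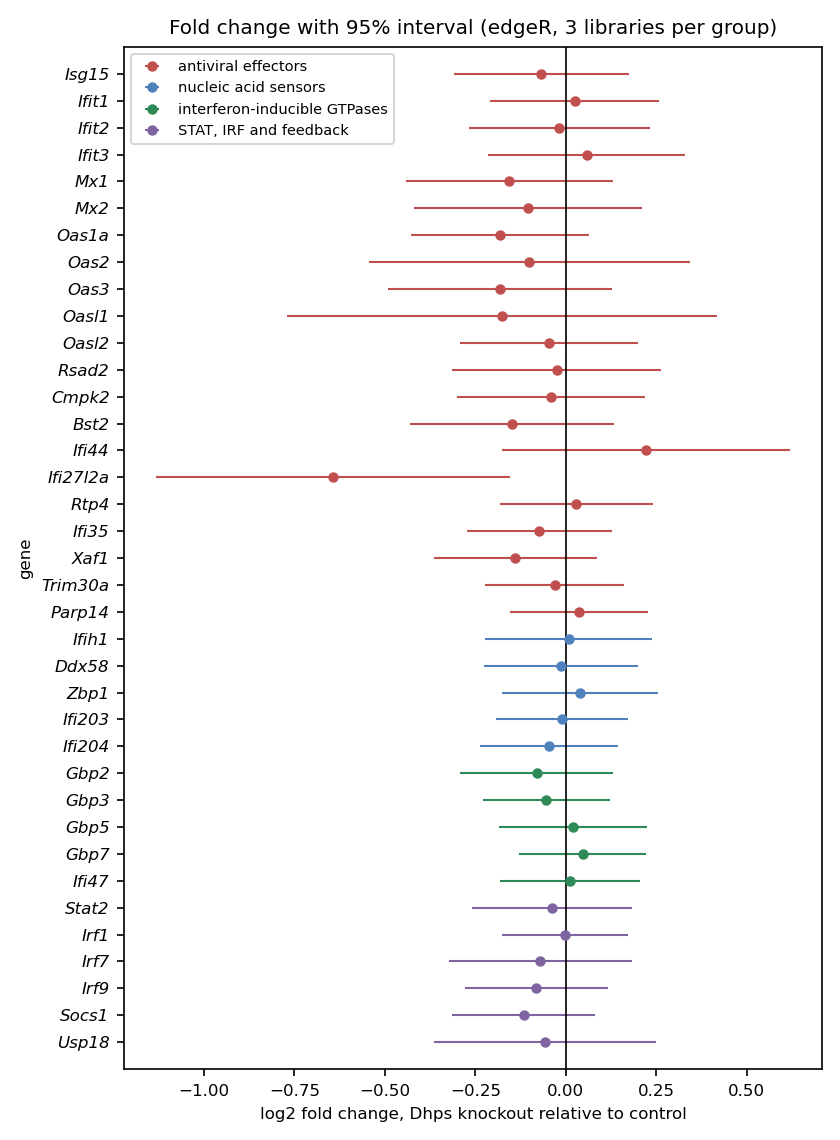
Log2 fold change of each of the 37 genes (x axis, Dhps knockout relative to control, points) with its 95% interval (bars) from edgeR with 3 libraries per group, coloured by role. The interval of Ifi27l2a, from -1.13 to -0.15, is the only one that does not include 0, and no gene passed the threshold after adjustment over all genes.

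Antiviral effectors can block viral entry, translation or assembly, or tag and degrade viral products, though not every gene of this group is known to do so. The median log2 fold change of the 21 effectors was -0.068, with 16 below 0 and 5 above. It was -0.19 without knockout library 3, 0.037 without knockout library 1 and 0.032 without control library 1. Rsad2, which encodes viperin, a radical SAM enzyme that makes a chain-terminating nucleotide, was the highest of them per kilobase. It lay at 3895, 2789 and 2963 CPM in control libraries 1, 2 and 3 and at 2582, 3058 and 3842 CPM in knockout libraries 1, 2 and 3. Control library 1 and knockout library 3 were high and the other 4 lower, and the groups overlapped (log2 fold change -0.025, SE 0.14, adjusted p = 0.992 by edgeR). Cmpk2, a mitochondrial nucleotide kinase gene, lies next to Rsad2 on chromosome 12 on the opposite strand, with starts at 26469215 and 26456452 in mm10. The same libraries were at the top, with 1582, 1259 and 1297 CPM across the controls and 1107, 1298 and 1619 across the knockouts.

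Isg15 encodes the ubiquitin-like protein that is attached to other proteins during the response. It lay at 317, 362 and 375 CPM across the controls and 275, 334 and 396 across the knockouts, a mean of 351 ± 30.1 and 335 ± 60.4 CPM (SD, n = 3 each). The knockout libraries held both the lowest and the highest value (log2 fold change -0.068, 95% interval -0.31 to 0.17). The IFIT genes on chromosome 19, whose proteins bind viral RNA, had log2 fold changes of 0.024 (Ifit1), -0.019 (Ifit2) and 0.057 (Ifit3). The remaining effectors other than Ifi27l2a lay between -0.18 (Oas3 and Oas1a) and 0.22 (Ifi44).

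Ifi27l2a, of a family of small hydrophobic interferon-induced proteins, had the largest difference of the 37 genes. It lay at 258, 113 and 144 CPM across the controls and 93.3, 86.8 and 149 across the knockouts. Control library 1 stood above all others, and knockout library 3 lay above the other 2 control libraries. The log2 fold change was -0.64 (SE 0.23, adjusted p = 0.603 by edgeR), and it was -0.22 without control library 1 and -0.93 without knockout library 3. Of its deposited exon bases 9.17% also lie in an exon of Ifi27 on the opposite strand, and 52.4% lie in the GENCODE gene of the same name, so the gene model itself is uncertain.

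The oligoadenylate synthetase genes on chromosome 5 make or resemble the enzymes that make the activator of RNase L. Oasl1, named for its spread after its values were seen, ranged most within the groups of all 37 genes. It lay at 807, 326 and 407 CPM across the controls and 330, 331 and 701 across the knockouts, so that the highest control library exceeded the lowest 2.48-fold and the highest knockout library the lowest 2.12-fold. The group means of 513 ± 258 and 454 ± 214 CPM (SD, n = 3 each) differed by far less than either SD. Its log2 fold change was -0.18 with all libraries, 0.31 without control library 1 and -0.63 without knockout library 3. Oas2 ranged 1.84-fold among control and 1.82-fold among knockout libraries, with the same libraries at the top. Mx1 and Mx2 belong to a family of dynamin-like GTPases that can trap viral particles, and the Mx1 gene of C57BL/6 mice carries a deletion and gives no functional protein. Mx1 lay at 790, 676 and 756 CPM across the controls and 561, 564 and 869 across the knockouts (log2 fold change -0.16, adjusted p = 0.910 by edgeR, and -0.39 without knockout library 3).

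Among the nucleic acid sensors, Ifih1 (MDA5) and Ddx58 (RIG-I) bind viral RNA in the cytosol, Zbp1 binds Z-form nucleic acids, and Ifi203 and Ifi204 belong to the PYHIN family of DNA-binding proteins. The 5 genes had log2 fold changes between -0.046 (Ifi204) and 0.038 (Zbp1). Ifi204, the highest of them per kilobase, lay at 818, 889 and 854 CPM across the controls and 736, 862 and 883 across the knockouts. The 95% interval of its log2 fold change was -0.24 to 0.15. Knockout library 1 was lowest for 4 of the 5 sensors within its group, and Ifi203 was the exception. PYHIN genes are close paralogs, and the counting of reads shared between them is not given in the sources used, so their separate levels are uncertain. The same holds for Oas1a, Ifit3 and the GBP and Trim30 families.

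Among the interferon-inducible GTPases, Gbp2, Gbp3, Gbp5 and Gbp7 lie in a cluster on chromosome 3 and encode guanylate-binding proteins, which coat vacuoles of intracellular microbes, and Ifi47 encodes a GTPase of the IRG family. Their log2 fold changes ran from -0.081 (Gbp2) to 0.047 (Gbp7), with a median of 0.012. Gbp2 lay at 5404, 5974 and 6611 CPM across the controls and 5036, 5924 and 6050 across the knockouts (adjusted p = 0.946 by edgeR). Here control library 3 was the highest control and control library 1 the lowest, whereas control library 1 was the highest control for Rsad2. Gbp3 lay at 1154, 1198 and 1218 CPM across the controls and 1086, 1157 and 1196 across the knockouts, the narrowest spread of the 5. Of the exon bases of Gbp7 11.3% also lie in a processed pseudogene, Gm43802.

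For the 6 genes of STAT and IRF factors and feedback inhibitors, all log2 fold changes were below 0, between -0.12 (Socs1) and -0.0026 (Irf1), with a median of -0.064 and 0 called. Those of Stat2, Irf1, Irf7 and Usp18 turned above 0 with at least 1 library left out, and that of Irf1 also without size factors. Irf1, a transcription factor induced through GAS elements, was the steadiest of the 37 genes, with 2134, 2074 and 2227 CPM across the controls and 2124, 2109 and 2191 across the knockouts. Its 95% interval ran from -0.18 to 0.17. Stat2 lay at 265, 253 and 304 CPM across the controls and 230, 268 and 301 across the knockouts. Irf9, its partner in the complex that binds the ISRE, lay at 47.8, 49.4 and 50.4 CPM across the controls and 43.9, 48.0 and 47.6 across the knockouts. The groups overlapped for both genes.

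Irf7, the factor that amplifies interferon-alpha production, lay at 209, 169 and 212 CPM across the controls and 161, 175 and 225.0 across the knockouts. Usp18 removes Isg15 from proteins and blocks the type I receptor. It lay at 269, 221 and 271 CPM across the controls and 182, 235 and 314 across the knockouts, so that its lowest and highest values both came from knockout libraries. Socs1, which inhibits the receptor kinases, lay at 276, 234 and 220 CPM across the controls and 227, 221 and 226 across the knockouts, where only control library 1 stood apart (log2 fold change -0.12, adjusted p = 0.908 by edgeR).

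**Figure D3:**
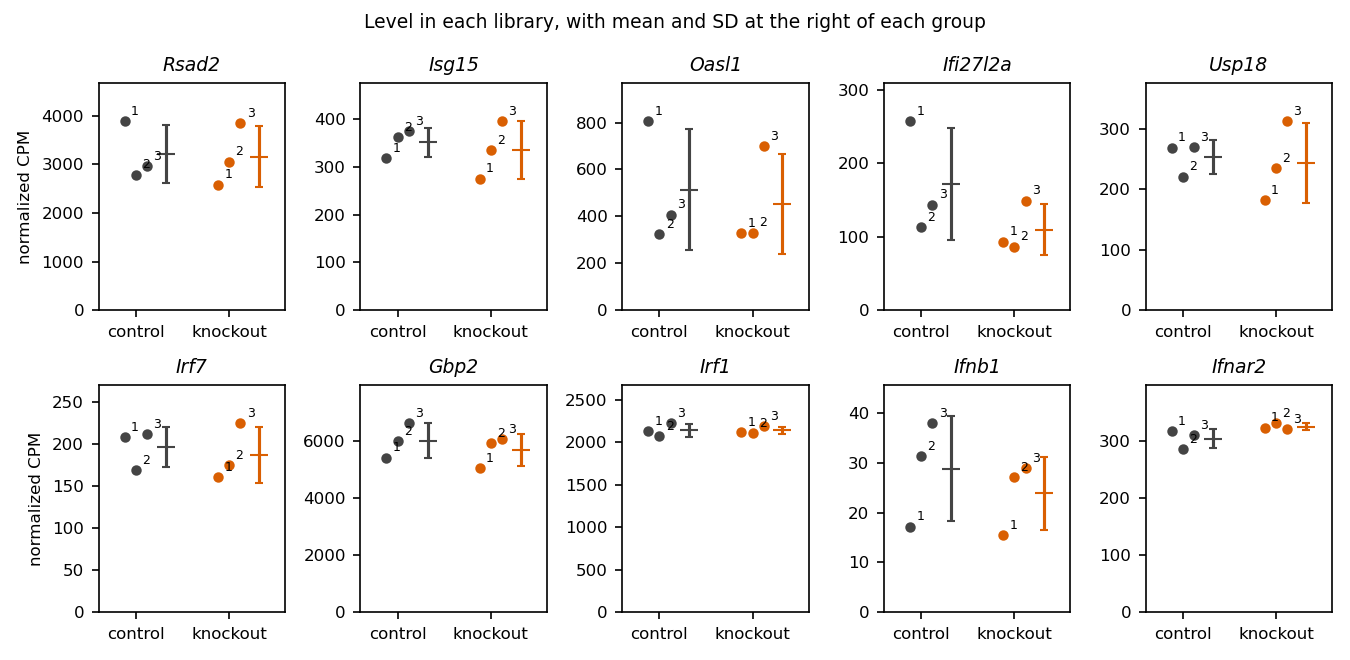
Normalized CPM (y axis, from 0) of 8 of the 37 genes and of Ifnb1 and Ifnar2 in each library (points, with the replicate number beside each) and the mean with SD at the right of each group (n = 3). Rsad2, Oasl1 and Ifi27l2a are highest in control library 1 among the controls and in knockout library 3 among the knockouts, while the points of Irf1 lie between 2074 and 2227 CPM.

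Set against the GTPases and the STAT, IRF and feedback genes, the median log2 fold change was -0.068 over the 21 effectors and -0.054 over the 11 others. Without control library 1 these medians were 0.032 and -0.025, and without knockout library 3 they were -0.19 and -0.096. The difference between the sets was not tested. The spread within groups was wider for the effectors, which is described here after the values were seen and without a test. The SD of log2 CPM between libraries of the same group had a median of 0.23 over the effectors, 0.14 over the sensors, 0.11 over the GTPases and 0.14 over the STAT, IRF and feedback genes. The median was 0.13 over the 6861 genes of the table with a mean of at least 10 CPM. Among the STAT, IRF and feedback genes Usp18 (0.30) and Irf7 (0.22) lay near or above the median of the effectors, and Irf1 (0.042) and Irf9 (0.057) were narrow. Among the effectors Parp14 (0.10), Ifi35 (0.11) and Trim30a (0.11) were the narrowest, and Oasl1 (0.65), Ifi27l2a (0.53) and Oas2 (0.46) the widest.

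Most effectors shared an order of libraries, which was picked out after the values were seen. In 16 of the 21 (76.2%) control library 1 was the highest control and knockout library 3 the highest knockout, a combination found in 10.1% of all genes. The exceptions were Isg15, Mx2, Xaf1, Trim30a and Parp14. Knockout library 3 was the highest knockout in 20 of 21 effectors, and knockout library 1 the lowest in 15 of 21. The median effector was 0.53 higher in knockout library 3 than in knockout library 1 on the log2 scale and 0.31 higher in control library 1 than in control library 2, where the medians over all genes were 0.0020 and 0.0062. The combination of control library 1 and knockout library 3 as highest was found in 1 of 5 sensors and 0 of 5 GTPases. It was found in 0 of 6 STAT, IRF and feedback genes, though Irf7 and Usp18 came close. Both were highest in knockout library 3, and control library 1 held 209 and 269 CPM, against 212 and 271 in control library 3. Outside the 37 genes, the combination was found in 18 of 56 further type I response genes (32.1%). Knockout library 3 was also the highest knockout in 4 of 5 sensors, 3 of 5 GTPases and 4 of 6 STAT, IRF and feedback genes. Control library 3 was the highest control in 5 of 5 GTPases and in 5 of 6 STAT, IRF and feedback genes. It was so in 2 of 5 sensors, 4 of 21 effectors and 3356 of all 10551 genes. Knockout library 1 was the lowest knockout in 5 of 5 GTPases, 4 of 5 sensors and 4 of 6 STAT, IRF and feedback genes, against 3852 of all genes.

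**Figure D4:**
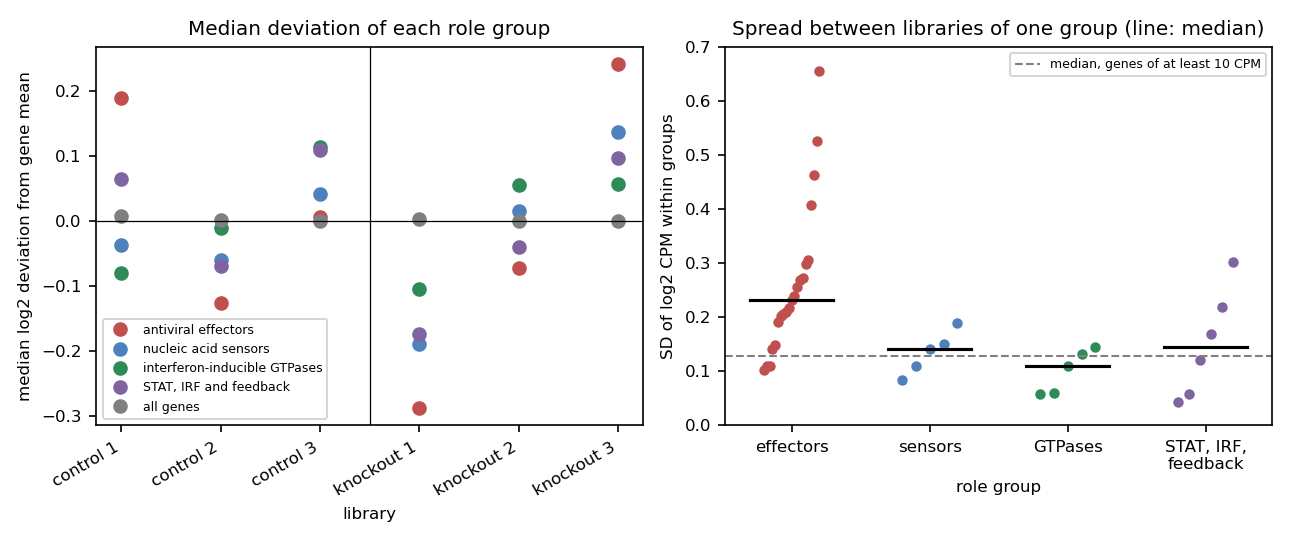
Left, the median over each role group, and over all genes, of log2 CPM minus each gene's mean over the 6 libraries (y axis), by library. Right, the SD of log2 CPM within groups for each gene (points), the median of each role group (black line) and the median of genes with at least 10 CPM (dashed, 0.13): effectors lie at 0.19 in control library 1 and 0.24 in knockout library 3, and at -0.29 in knockout library 1.

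The summed neutrophil markers were highest in control library 1 among the controls (445 CPM, against 331 and 363) and in knockout library 3 among the knockouts (824 CPM, against 629 and 682). The macrophage and monocyte sums were highest in control library 3 and knockout library 2. Sums of plasmacytoid dendritic cell and stromal markers were highest in control library 3 and knockout library 3. The part of any of these cells in the spread of the effectors was not tested. Dhps was highest within its group in control library 1 (24.1 CPM) and in knockout library 3 (18.3 CPM). Total counts were 14334262 in control library 1, between those of the other controls, and 16224818 in knockout library 3, the most of all. Knockout library 3 was the highest knockout in 31 of the 37 genes, so leaving it out lowers their knockout mean whatever the genotype does. That fit therefore cannot decide whether the genotypes differ. In it, 9 of the 37 genes had an unadjusted p under 0.05 by edgeR, all lower in the knockout. The share over all genes was 6.44% (2.55% lower), and 0 of the 37 passed after adjustment. The 9 genes were Ifi27l2a, Mx1, Mx2, Oas1a, Oas3, Oasl1, Oas2, Xaf1 and Usp18, of which Ifi27l2a had the smallest adjusted p (0.264 by edgeR). When any other single library was dropped, between 0 and 2 of the 37 had an unadjusted p under 0.05.

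**Figure D5:**
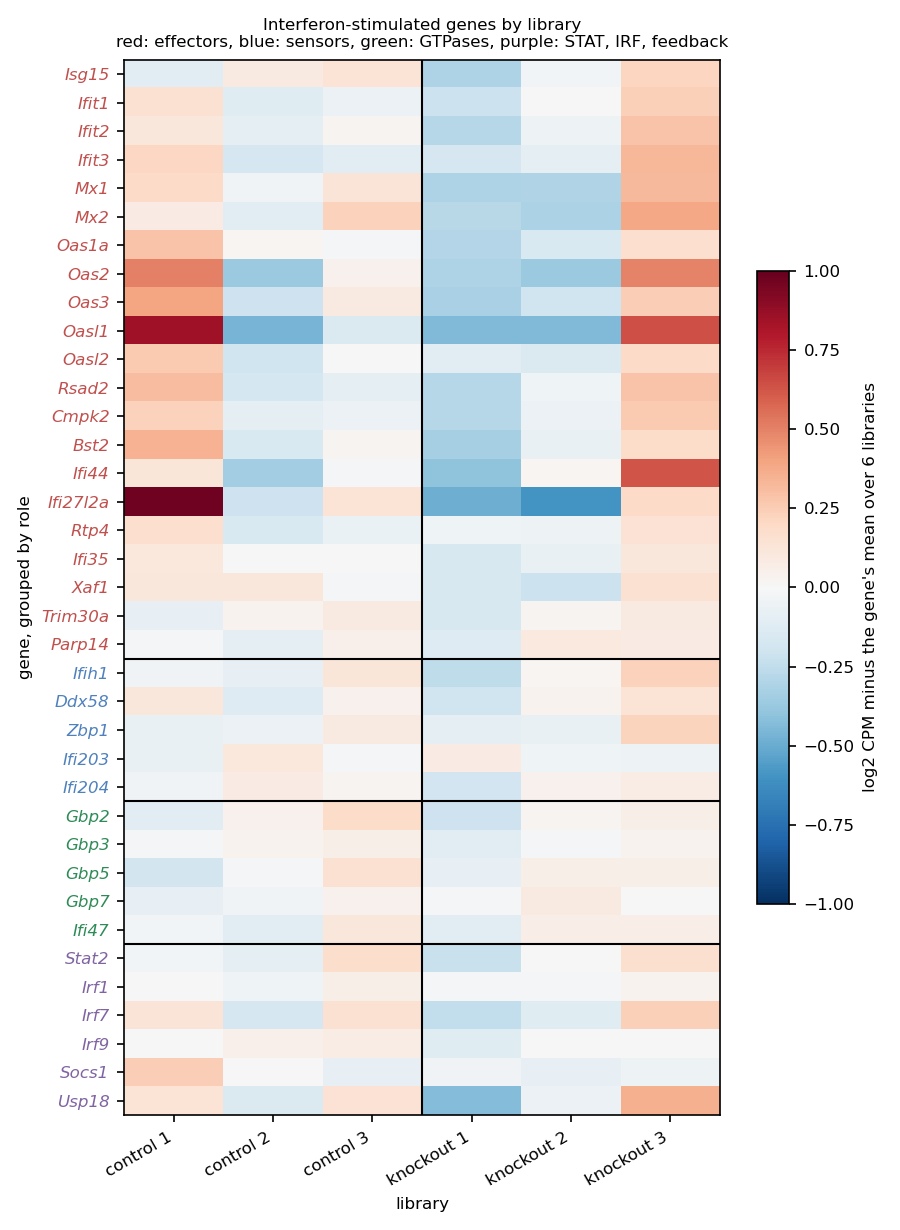
Log2 CPM minus the gene's mean over the 6 libraries (colour, red higher and blue lower) for each of the 37 genes (rows, by role) in each library (columns, controls left of the line). The rows of the effectors are mostly red in control library 1 and knockout library 3, and those of the GTPases are not red in control library 1.

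Another 141 genes of interferon induction, signalling and response were listed by knowledge of the pathway, but with earlier results of these data known. Of these, 122 were measured and 0 were called by edgeR. At an unadjusted p under 0.05 by edgeR, 3 were higher and 6 lower, against 3.84% and 2.64% of all genes. Of 10 listed interferon genes 1 was measured, Ifnb1, which encodes interferon-beta. It lay at 17.2, 31.2 and 37.9 CPM across the controls and 15.5, 27.0 and 28.9 across the knockouts (log2 fold change -0.27, SE 0.23, adjusted p = 0.910 by edgeR). Control library 1, where most effectors were highest among the controls, held the lowest Ifnb1 of the controls. Among the knockouts Ifnb1 was highest in library 3 and lowest in library 1, as were most effectors. Its part in the spread of the effectors was not tested.

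The receptor genes varied little between libraries. Ifnar1 had a log2 fold change of -0.047 (95% interval -0.22 to 0.13), Ifngr1 of 0.058 and Ifngr2 of 0.022. Ifnar2 lay at 318, 286 and 311 CPM across the controls and 324, 332 and 321 across the knockouts, without overlap (5.73% of all genes were higher in this way) and with a difference of 0.096 on the log2 scale (adjusted p = 0.910 by edgeR). The kinase gene Jak1 lay at 513, 475 and 500.3 CPM across the controls and 524, 514 and 520.0 across the knockouts, also without overlap (difference of 0.065 on the log2 scale, adjusted p = 0.946 by edgeR), and Tyk2 had a log2 fold change of -0.059. Over the 8 measured receptor and kinase genes the SD of log2 CPM within groups had a median of 0.072. Of the 11 measured genes of the list of other STAT and IRF factors, Irf2bpl (log2 fold change 0.40), Irf3 (-0.21) and Batf2 (-0.089) had the smallest p.

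Among 9 negative regulators the phosphatase gene Ptpn6 (log2 fold change -0.21, adjusted p = 0.693 by edgeR), Cish (0.24) and Socs3 (-0.12) had the smallest p, and among 15 genes of interferon induction Ticam2 (0.43, adjusted p = 0.533), an adaptor of Tlr4, Ticam1 (0.23) and Tlr9 (0.35). The 56 further type I response genes were centred on a log2 fold change of -0.0069 (median), 31 of them below 0. Slfn4 (0.72), Daxx (-0.19) and Ms4a6b (0.23) had the smallest p. Slfn4 was low, with 2.14, 1.93 and 1.57 CPM across the controls and 1.99, 3.18 and 4.17 across the knockouts. Its groups overlapped (adjusted p = 0.737 by edgeR). Knockout library 3 was the highest knockout in 46 of these 56 (82.1%), against 31.1% of all genes. Of the 22 further interferon-gamma response genes 18 were below 0 (median -0.080), and 5 had an unadjusted p under 0.05, all lower in the knockout, against 2.64% of all genes. They were Ciita, the master regulator of MHC class II genes (-0.38, adjusted p = 0.462 by edgeR), Fcgr1, a high-affinity IgG receptor gene (-0.33), Nlrc5, the regulator of MHC class I genes (-0.23), Gbp11 (-0.63) and Gbp2b (-0.37), the last 2 of which are outside the rule for named genes and were named after their values were seen. Fcgr1 lay at 236, 206 and 228 CPM across the controls and 149, 177 and 205 across the knockouts, each knockout library below each control. Of these 22 genes, knockout library 1 was the lowest knockout in 15 and knockout library 3 the highest in 15. Control library 3 was the highest control in 13. Fits with 1 library left out are not given for them, so how far the majority below 0 rests on single libraries is not shown. This list was also chosen with earlier results known, so 5 genes beside 2.64% is no test.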

How the data were processed

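RNA was sequenced on an Ion Proton, per the labels' protocols. The authors deposited counts of reads for each gene, with no normalization, beside exon coordinates and the summed exon length, used here for levels per kilobase. Tools named in the submitters' processing notes, without roles, are edgeR, featureCounts, Subread 1.5.0 and STAR 2.4.2a, with the build mm10. For the annotation and the use of strand, nothing is stated. In each gene the third highest value exceeded 1 CPM, so the table looks filtered. Here filterByExpr (minimum count of 10) removed 0 genes, library sizes were scaled by TMM, and edgeR 4.0.16 (R 4.3.3) gave a two-sided quasi-likelihood test per gene, genotype only, Benjamini-Hochberg over all 10551 genes, threshold 0.05. The SE is the size of the log2 fold change divided by the square root of F. The test was tested on simulated data.

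Members and lists were chosen with earlier results of these data known, and members get no set test. By rule, library values are given for members with an unadjusted p under 0.05 or no overlap, the highest per kilobase and the smallest p of each role group, and Stat2, Irf1, Irf7, Irf9, Isg15 and Usp18. The rule also names up to 3 genes of each pathway list by p, the receptor genes and Ifnb1, some by log2 fold change alone, and a further gene that is not reported here. Every other gene was named with its values known. The alternatives tried were other size factors and filters, DESeq2 1.42.0, limma-voom (limma 3.58.1), the replicate number as a block and each library left out. Promoter sequence came from RefSeq (GRCm38.p6) and exon overlaps from GENCODE M21. Every column of sample values was used.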

Additional observations from a re-analysis of the deposited data

How the results depend on the processing

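The count of 0 called among the 37 genes held in all 13 alternatives. The alternative with no filter could not differ from the main fit, because filterByExpr removed 0 genes. Over the whole table the 11 calls became 35 with the replicate number as a block and 22 with DESeq2, and ranged from 4 (without control library 2) to 19 (without control library 1), with 7 without control library 3, and the cause was not tested. With the replicate block the median log2 fold change of the 37 genes was -0.049 and the smallest adjusted p 0.175 (Ifi27l2a), and it changed no call among them. Same-numbered libraries had correlations of their deviations from the group means between 0.019 and 0.148. For libraries of unlike number these ran from -0.181 to 0.055, and 4 of 6 libraries correlated best with their own number. The main test did not pair them because the labels do not say that the number marks a shared mouse, culture or day.

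With 1 library left out, the median over the 37 genes ranged from -0.13 to 0.037, over the effectors from -0.19 to 0.037, and over the GTPases with the STAT, IRF and feedback genes from -0.096 to 0.033. The log2 fold change of 27 of the 37 genes changed sign with at least 1 library left out. Without size factors 15 of the 37 were above 0, and the median of all genes was 0.019. The lowest count of any of the 37 genes in a library was 405. How much depth limits the comparisons was not tested.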
